A study of Mus musculus with 12 samples.

Results

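Genes that are switched on at the 2-cell stage of the mouse embryo were followed through the formation of embryoid bodies and a 12 h retinoic acid treatment. The group holds 8 genes of the 2-cell-like state: Zfp352, Tdpoz3, Usp17la, Eif4a3l1, Gm5662, Tmem92, Arg2 and Zscan4c. They were chosen by name, with their low values in embryoid bodies known. Each was represented by the probe set that lists its symbol alone. Such a probe set was found for 7 of the 8 genes, out of 19938 genes represented in this way. Zscan4c was listed only on 3 probe sets that also list other Zscan4 copies, so it had no value of its own. All 12 samples derive from D3, a line of mouse embryonic stem (ES) cells kept here as 1 clone, and the labels name no genetic change. The 4 groups of 3 biological replicates were undifferentiated ES cells at day 0, untreated embryoid bodies (EBs) at day 4, EBs given DMSO (the solvent) for 12 h, and EBs given all-trans retinoic acid (ATRA) for 12 h at a labelled 5 micromolar. EBs were aggregated in bacteriological dishes without LIF, the factor that keeps ES cells undifferentiated. From the labels it is unclear if treatment was the last 12 h of the 4 days or came after.

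In the mouse, the embryo starts large-scale transcription of its own genome at the 2-cell stage, and a burst of genes and endogenous retroviruses is read for a short time. ES cell cultures hold a small, changing fraction of cells that pass through a similar state, in which the transcription factor Dux, the Zscan4 family and genes driven by long terminal repeats of the retrovirus MERVL are active. Many of these genes lie in tandem arrays of near-identical copies. Because RNA of whole cultures was measured, fewer cells in that state and less RNA per cell cannot be told apart here.

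Every array value below is a log2 value as deposited, and a difference of 1 between arrays means a 2-fold difference in signal. Array medians lay between 7.76 and 7.86. The mean of the 8 pluripotency genes looked at was 12.76 to 12.79 in ES arrays and 12.74 to 12.80 in day 4 EBs. It was 12.75 to 12.78 with DMSO and 12.63 to 12.65 with ATRA, where all arrays lay below the ES arrays. Singly, 2 of the 8 were called higher and 1 lower in day 4 EBs than in ES cells by limma. Of all genes, 17.8% were called higher and 16.9% lower. Visceral endoderm genes, which mark the outer layer of EBs, had a mean of 8.66 to 8.73 in ES cells and 10.24 to 10.92 in EBs. The ATRA target gene Cyp26a1 stood at 9.82 with DMSO and 11.58 with ATRA. Values were spread least on replicate 2 of the ES and of the EB group, at an interquartile range of 3.50 against 3.55 to 3.65 in the other arrays.

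Start regions were available for some of these genes. The RefSeq promoter table (GRCm38.p6) matched 4 of the 8 genes. The 200 bases before the start are given for them, all on the plus strand, at chr4:90218620-90218819 for Zfp352, chr6:136327339-136327538 for Eif4a3l1, chr7:11005545-11005744 for Zscan4c and chr7:104856816-104857015 for Usp17la. Arg2, Tdpoz3, Tmem92 and Gm5662 had no entry. Zfp352 and Eif4a3l1 are shown because they lie on different chromosomes and share 3 runs of letters, in capitals: CACACCTTTAATC, CTGCTGGAG and ATATAAGG.
Zfp352: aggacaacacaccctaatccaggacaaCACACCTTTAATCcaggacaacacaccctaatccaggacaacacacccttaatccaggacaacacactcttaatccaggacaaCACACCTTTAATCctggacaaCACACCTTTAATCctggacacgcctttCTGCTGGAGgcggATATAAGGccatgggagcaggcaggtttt
Eif4a3l1: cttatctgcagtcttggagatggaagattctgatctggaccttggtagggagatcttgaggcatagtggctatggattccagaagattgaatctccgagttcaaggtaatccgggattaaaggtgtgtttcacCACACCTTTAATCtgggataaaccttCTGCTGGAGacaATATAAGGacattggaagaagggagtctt
In both genes ATATAAGG begins 29 bases before the annotated start, and CTGCTGGAG begins 42 bases before it in Zfp352 and 41 in Eif4a3l1. CACACCTTTAATC occurs 3 times in Zfp352, all on the gene's strand. In Eif4a3l1 it occurs 2 times when both strands are searched, and only 1 of these, in capitals, is on the gene's strand. Searched on both strands, CACACCTTTAATC was present in 0.152% of the 32851 promoter windows of the table, CTGCTGGAG in 1.1% and ATATAAGG in 0.776%. The letter runs were picked from these sequences, so their presence in both genes is a description.

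All 3 runs stood together on the gene's strand in 20 windows, which belong to 19 genes. On the array, 4 of the 19 had a probe set of their own. Beside Zfp352 and Eif4a3l1 these were I0C0044D17Rik, which went from 7.03 ± 0.03 in ES cells to 6.63 ± 0.09 in day 4 EBs (SD, n = 3), and Pemt, a phospholipid methyltransferase gene, at 8.52 ± 0.02 and 8.56 ± 0.04. Others of the 19 are listed on 8 probe sets with several symbols, Eif4a3l1 left aside. Their log2 difference between day 4 EBs and ES cells ran from -3.19 to -0.87 with a median of -2.79, against 0.01 over all probe sets. Each of the 8 lists either Sp110 or Gm8764, and symbols outside the 19 genes as well. Some of the 8 hold the same values, so they are no independent measurements, and no gene can be named from them. The letter runs were picked from 2 members known to be low in EBs, so these values are a description. CACACCTTTAATC was also found before Tdpoz1, Tdpoz8 and Tdpoz9, relatives of Tdpoz3.

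Zscan4c and Usp17la are shown because each has near-identical copies that extend into the start region.
Zscan4c: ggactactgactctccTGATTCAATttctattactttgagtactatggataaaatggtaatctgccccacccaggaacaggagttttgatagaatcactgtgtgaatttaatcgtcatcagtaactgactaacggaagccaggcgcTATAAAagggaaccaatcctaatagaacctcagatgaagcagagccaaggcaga
Usp17la: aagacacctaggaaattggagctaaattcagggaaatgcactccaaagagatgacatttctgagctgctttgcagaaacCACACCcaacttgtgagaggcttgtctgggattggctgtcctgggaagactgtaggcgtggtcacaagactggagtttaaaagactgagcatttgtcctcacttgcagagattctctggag
Capitals mark TGATTCAAT and TATAAA in Zscan4c and CACACC in Usp17la. Over the stretch that could be aligned, the Zscan4c window was 99.3% identical to that of Zscan4f, 97.6% to Zscan4d and 95.3% to Zscan4b. TATAAA, the core of a TATA box, was present in 13.6% of all windows. It was found before all 4 of these Zscan4 genes, and before Usp17lb, Usp17lc and Usp17ld, but not in the window of Usp17la, which was 87.3% to 96.2% identical to theirs. TGATTCAAT, found in 0.113% of windows, was present in Zscan4c and Zscan4f. A direct repeat of the retinoic acid receptor half-site, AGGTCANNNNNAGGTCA, was searched on both strands and was in none of the 4 members' windows and in 0.00913% of all windows. Nearly every window lacks this exact repeat, so nothing is drawn from its absence in the 4. The single half-site AGGTCA was in 16.3% of all windows and, of the 4 members, in Zscan4c, 236 bases before the start and so outside the printed stretch.

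From ES cells to day 4 EBs, all 7 genes with a value of their own were lower, with log2 differences of -3.99 to -2.93. The members were chosen on this contrast, so it is given as a description, without a test. Of all 19938 genes, 16 (0.0802%) had a difference as low as that of Zfp352, the least changed of the 7, and the 7 are among those 16. Gm5662 had the lowest difference of these 19938 genes; probe sets with several symbols or none were not ranked. No ES array overlapped an EB array for any of the 7, and 20.1% of all genes had day 4 EB values wholly below the ES values and 21.2% wholly above. A log2 difference of -2 or lower was found for 0.341% of genes.

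Zfp352 encodes a zinc finger protein first described in 2-cell embryos. Its values were 10.36, 10.38 and 10.31 in ES cells and 7.25, 7.42 and 7.59 in day 4 EBs. With DMSO they were 7.15, 7.36 and 7.18, and with ATRA 7.08, 7.24 and 7.22. Its ES arrays had an SD of 0.03 (n = 3), the smallest of the 7 genes, and its difference between day 4 EBs and ES cells was -2.93 ± 0.08 (SE), or 7.63-fold lower.

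Tdpoz3 encodes a protein with TRAF and BTB/POZ domains, which occur together in adaptors of ubiquitin ligases. It stood at 10.90, 10.60 and 10.67 in ES cells, and at 7.45, 7.14 and 7.39 in day 4 EBs. The DMSO arrays read 7.11, 7.58 and 7.31 and the ATRA arrays 6.725, 7.002 and 6.973, so the ATRA arrays were the lowest of the 12. The difference between day 4 EBs and ES cells was -3.39 ± 0.13 (10.5-fold lower).

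Usp17la, also known as Dub1, encodes a deubiquitinating enzyme of a tandem gene family. ES cells gave 9.99, 9.37 and 9.67 and day 4 EBs 6.45, 6.09 and 6.41. DMSO gave 5.98, 6.03 and 6.13, and ATRA 6.36, 6.22 and 6.31. It was at a difference of -3.36 ± 0.13 in day 4 EBs against ES cells (10.3-fold lower), and replicate 2 was the lowest array in both of those groups.

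Eif4a3l1 and Gm5662 are relatives of genes for general RNA factors. Eif4a3 encodes an RNA helicase of the exon junction complex, and Eif1a a translation initiation factor. Eif4a3l1 read 10.999, 10.003 and 10.658 in ES cells, a wider spread (SD 0.51) than any other of the 7 genes had there. In day 4 EBs it read 7.39, 7.14 and 7.20, with DMSO 7.24, 7.20 and 7.20, and with ATRA 6.882, 7.662 and 7.003. Its difference between day 4 EBs and ES cells was -3.31 ± 0.23 (9.91-fold lower). Gm5662 read 12.15, 11.68 and 11.82 in ES cells and 8.14, 7.68 and 7.86 in day 4 EBs. Under DMSO it read 7.82, 7.96 and 7.82, and under ATRA 8.01, 8.18 and 8.03. The ES arrays stood 15.9-fold above day 4 EBs (-3.99 ± 0.12).

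Tmem92, a transmembrane protein gene, had ES values of 11.65, 11.25 and 11.45. They were 8.07, 7.96 and 8.27 in day 4 EBs, 7.94, 8.22 and 7.96 with DMSO, and 8.24, 8.53 and 8.42 with ATRA. Day 4 EBs differed from ES cells by -3.35 ± 0.12 (10.2-fold lower). Arg2 encodes the mitochondrial arginase, which turns arginine into ornithine and urea. Its ES arrays gave 10.30, 9.91 and 10.08 and its day 4 arrays 7.04, 7.17 and 7.03. DMSO arrays gave 6.75, 6.85 and 6.89, and ATRA arrays 7.13, 7.10 and 7.18. The step to day 4 EBs was -3.01 ± 0.08 (8.07-fold lower), and Arg2 is the only member with DMSO values wholly below those of day 4 EBs, which held for 12.9% of all genes, with 9.5% wholly above.

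**Figure D1:**
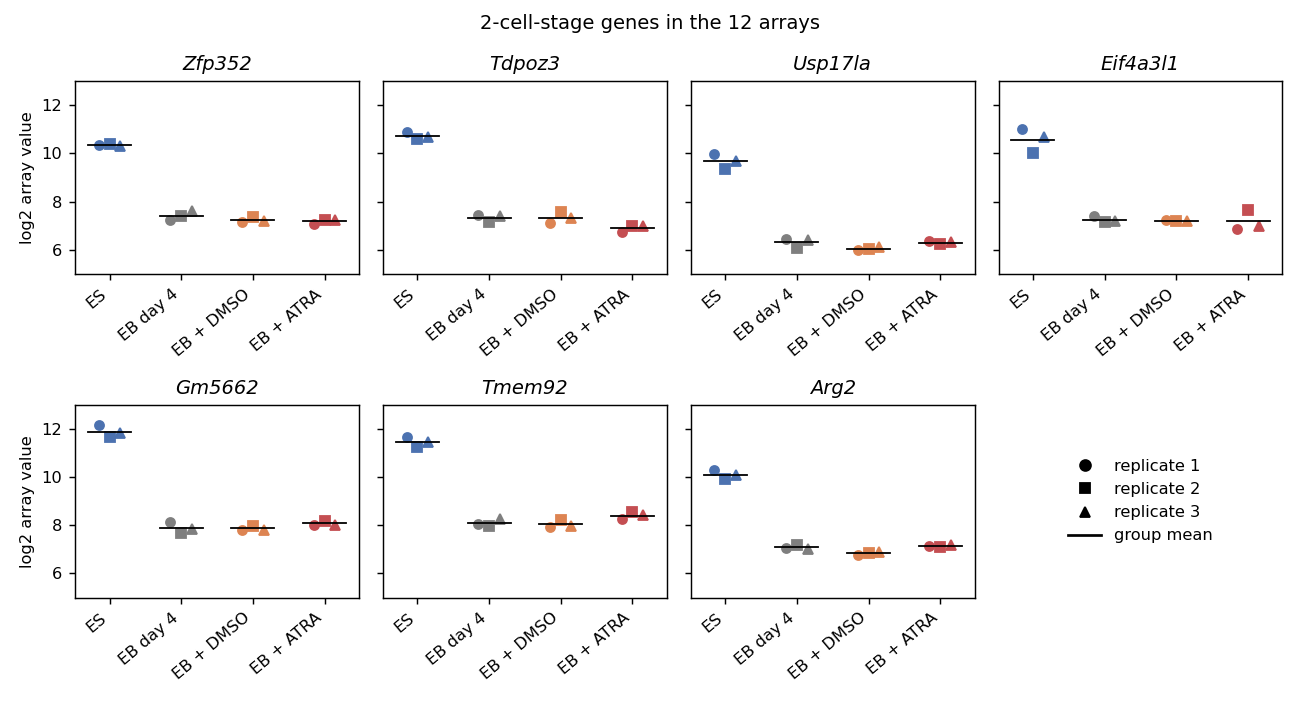
Log2 array values (vertical axis) of the 7 genes with a probe set of their own, in 4 groups of 3 arrays, with a bar at each group mean. ES arrays lie between 9.37 and 12.15, and all EB arrays between 5.98 and 8.53.

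The low level was held in the treated EBs. Against ES cells, DMSO-treated EBs differed by -4.02 (Gm5662) to -3.12 (Zfp352) and ATRA-treated EBs by -3.82 (Tdpoz3) to -2.96 (Arg2). These differences share the ES arrays on which the members were chosen and are descriptions. From untreated day 4 EBs to DMSO, the differences were -0.27 ± 0.13 for Usp17la, -0.25 ± 0.08 for Arg2, -0.19 ± 0.08 for Zfp352, -0.06 ± 0.12 for Tmem92, -0.03 ± 0.23 for Eif4a3l1, -0.02 ± 0.12 for Gm5662 and 0.00 ± 0.13 for Tdpoz3. That contrast shares the day 4 EB arrays and was not tested either.

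The 7 genes differed in how far the ES cultures lay apart. The SD of the 3 ES arrays had a median of 0.20 over the members and 0.09 over all genes, and ran from 0.03 for Zfp352 to 0.51 for Eif4a3l1. ES replicate 1 was the highest and ES replicate 2 the lowest array for 6 of the 7 genes, Zfp352 being the exception in both cases. EB replicate 2 was the lowest of its group for 5 of the 7. ES replicate 2 and EB replicate 2 are also the arrays with the narrowest spread of all values, and the part of this in the members' values was not tested. Without these 2 arrays the differences between day 4 EBs and ES cells were -3.99 for Gm5662, -3.53 for Eif4a3l1 and -2.92 for Zfp352.

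**Figure D2:**
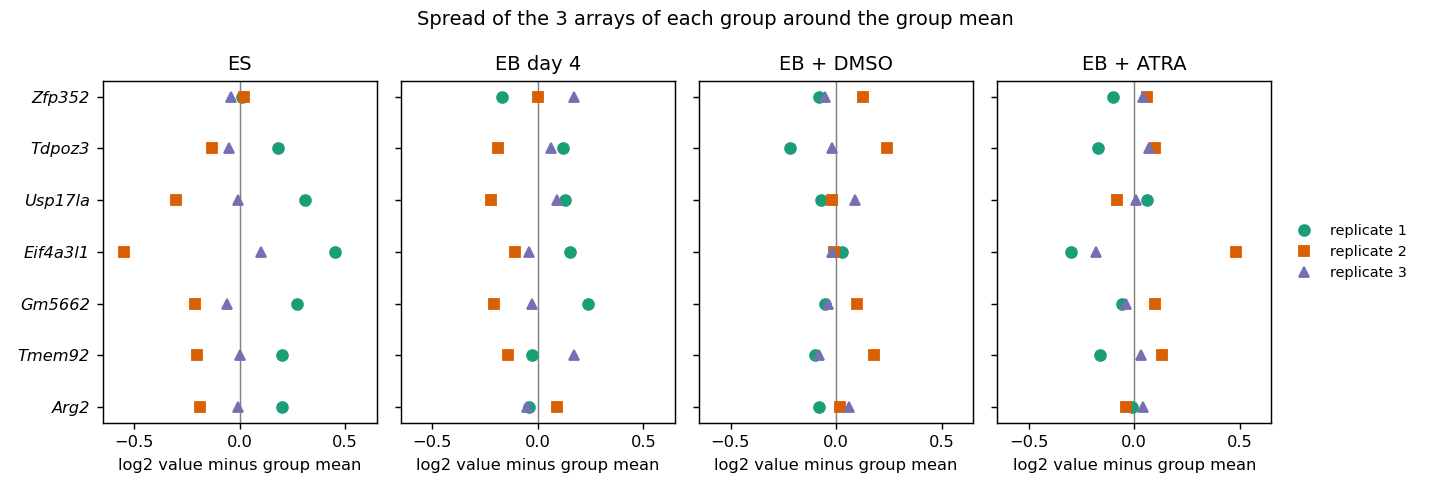
Each array's log2 value minus the mean of its group (horizontal axis) for the 7 genes, in 1 panel per group, with a symbol shape for each replicate. In the ES panel replicate 1 lies at the right and replicate 2 at the left for 6 genes, from 0.45 to -0.55 for Eif4a3l1, while Zfp352 stays within 0.04 of 0.

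Probe sets shared with copies list 4 of the genes. Gm5662 is listed on 4 further probe sets together with 7 other symbols, Eif1a among them, and their difference between day 4 EBs and ES cells was -1.97 to -1.45, against -3.99 on its own probe set. Eif4a3l1 is listed with Eif4a3 on 2 probe sets, which differed by -0.53 and -0.47 against -3.31 on the probe set of Eif4a3l1 alone. The probe set of Eif4a3 alone stood at 11.18 ± 0.06 in ES cells and 11.02 ± 0.17 in day 4 EBs. On a shared probe set the listed genes cannot be told apart. Usp17la is listed with 3 other Usp17l genes on 1 probe set, which differed by -3.16 ± 0.10. A probe set that lists a single symbol may also bind RNA of near-identical copies that the annotation does not list.

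Zscan4c is listed on 3 probe sets, each with the same 5 symbols (Zscan4a, Zscan4b, Zscan4c, Zscan4d and Zscan4f). Zscan4 proteins are a hallmark of the 2-cell-like state and act on telomeres. Probe set 10549972 read 13.65, 13.55 and 13.60 in ES cells and 10.61, 10.69 and 10.57 in day 4 EBs. Under DMSO it read 10.27, 10.61 and 10.32, and under ATRA 10.62, 10.97 and 10.79. Over all 3, day 4 EBs lay below ES cells by a log2 difference of -3.05 to -2.78. These signals belong to the Zscan4 copies together and to no single gene.

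**Figure D3:**
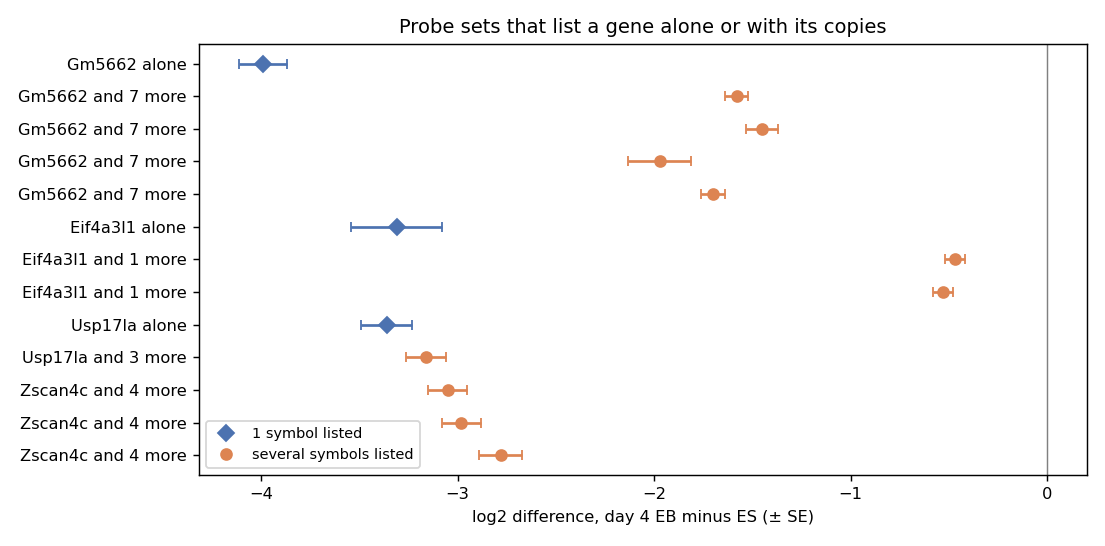
Log2 difference between day 4 EBs and ES cells (horizontal axis, ± SE) for probe sets that list Gm5662, Eif4a3l1 or Usp17la alone (diamonds) and those that list them, or Zscan4c, with other symbols (circles). Probe sets shared with Eif4a3 lie at -0.53 and -0.47, those shared by Usp17l or Zscan4 copies between -3.16 and -2.78.

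ATRA for 12 h against DMSO was tested. The difference itself uses neither the ES nor the untreated EB arrays, but the SE and p come from a fit to all 12 arrays, those on which the members were chosen included. Retinoic acid is known to act on ES cells in culture to raise Zscan4 and other genes of the 2-cell-like state. Here Arg2 was higher and Tdpoz3 lower than with DMSO, and 5 of the 7 genes did not pass the test. Arg2 was higher by 0.31 ± 0.08 (1.24-fold, adjusted p = 0.0276 in limma, higher in 3 of 3 arrays). Tdpoz3 was lower by a log2 difference of -0.43 ± 0.13 (1.35-fold, adjusted p = 0.0401), with all 3 ATRA arrays below all 3 DMSO arrays. For both genes the DMSO and ATRA means lay below the array medians of 7.76 to 7.86. No filter on low values was applied. Against untreated day 4 EBs, Arg2 with ATRA differed by 0.06 ± 0.08 (means 7.14 and 7.08), and its DMSO mean was 6.83. Tdpoz3 with ATRA differed from untreated day 4 EBs by -0.43 ± 0.13. These 2 differences share the day 4 EB arrays and were not tested. The 1 gene higher compares with 6.26% of all genes called higher, and the 1 lower with 7.05% called lower. All 3 ATRA arrays lay below DMSO for 20% of genes. Of 6 visceral endoderm markers 4 fell with ATRA in limma and 2 did not pass. The array mean of all 6 was 10.71 to 10.92 with DMSO and 10.44 to 10.66 with ATRA. The part of these markers' cells in the members' values was not tested.

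Of the genes that did not pass, Tmem92 differed by 0.35 ± 0.12 (1.28-fold, limma adjusted p = 0.0712), Usp17la by 0.25 ± 0.13 (adjusted p = 0.26) and Gm5662 by 0.21 ± 0.12 (adjusted p = 0.333). In each of these the 3 ATRA arrays lay above the 3 DMSO arrays, as they did for Arg2, and such a separation held for 19.6% of all genes. Zfp352 (-0.05 ± 0.08, adjusted p = 0.75) and Eif4a3l1 (-0.03 ± 0.23, adjusted p = 0.949) overlapped between the groups. For Eif4a3l1 the ATRA arrays were spread by an SD of 0.42, with replicate 2 above the others.

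Both calls lay close to the threshold. Arg2 lost its call without DMSO replicate 1 or 2 or any ATRA replicate (log2 difference 0.27 to 0.33, limma adjusted p = 0.0609 to 0.109), and Tdpoz3 without ES replicate 3, EB replicate 3, DMSO replicate 2 or 3 or any ATRA replicate (-0.48 to -0.31, limma adjusted p = 0.0516 to 0.158). Tmem92 passed in 7 of 23 alternative settings, at limma adjusted p = 0.0185 to 0.0452.

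The probe sets shared by the Zscan4 copies were tested in a fit over all 35556 probe sets of the table, chosen after their values were seen. ATRA stood above DMSO by 0.40 ± 0.10 on probe set 10549972 (1.32-fold, limma adjusted p = 0.0379), 0.40 ± 0.11 on 10559978 (adjusted p = 0.0452) and 0.37 ± 0.10 on 10549964 (adjusted p = 0.0582). In that fit 3.45% of probe sets were called higher. The 3 probe sets list the same genes and are no independent measurements. The ATRA level remained far below that of ES cells, at 10.80 ± 0.17 against 13.60 ± 0.05 for 10549972 (SD, n = 3). Without DMSO replicate 1 or 3, or ATRA replicate 2 or 3, none of the 3 was called in limma (adjusted p = 0.105 to 0.201, log2 difference 0.29 to 0.40).

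**Figure D4:**
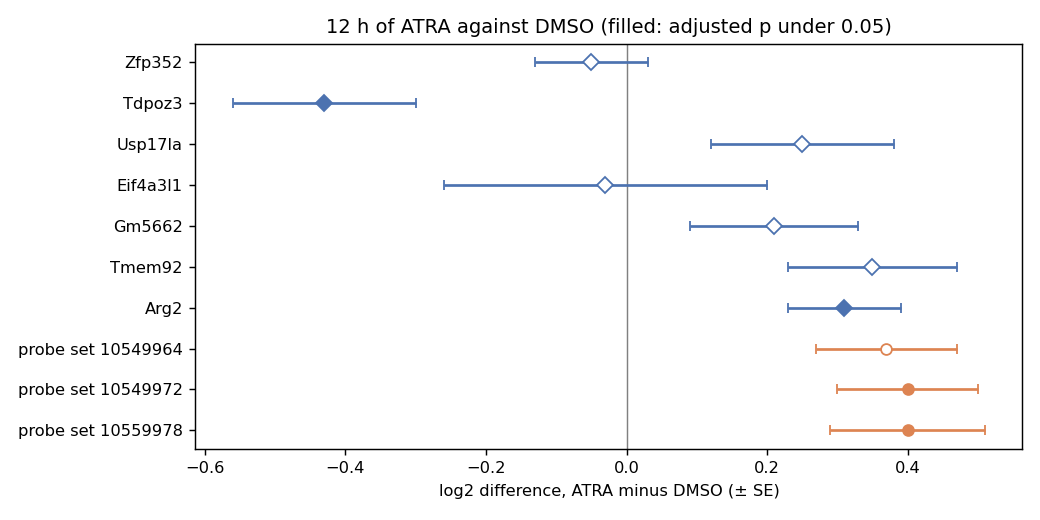
Log2 difference between ATRA and DMSO (horizontal axis, ± SE) for the 7 genes (diamonds) and for the 3 probe sets shared by Zscan4 copies (circles), filled where the limma adjusted p was under 0.05. Arg2 at 0.31 and 2 Zscan4 probe sets at 0.40 are filled to the right, and Tdpoz3 at -0.43 to the left.

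Other genes of the 2-cell-like state were lower in day 4 EBs in most cases. They were listed by name without the members, but with earlier results of these data known. Of 28 measured genes, 20 fell and none rose in limma, with a median log2 difference of -0.72, against -0.00 over all genes, of which 16.9% fell and 17.8% rose. Among the close relatives of the members, 5 of 6 fell: Usp17lb (-3.02 ± 0.12), Usp17lc (-2.71 ± 0.08), Usp17ld (-2.25 ± 0.09), Tdpoz2 (-1.85 ± 0.08) and Gm5039. Tdpoz1 did not pass, at 6.56 in ES cells and 6.62 in day 4 EBs. These 6 are copies or relatives of members that were chosen on this contrast. Usp17lc and Usp17ld share a probe set with Usp17la, and Gm5039 shares probe sets with Gm5662. Their own probe sets may also bind RNA of members, so their falls cannot be counted as separate from those of the members. The 22 others had a median log2 difference of -0.51. Of these 22, 15 fell, among them Obox6, an oocyte homeobox gene (-3.14 ± 0.16), Tcstv3 (-1.99 ± 0.09) and Ubtfl1, an HMG-box gene of the early embryo (-1.69 ± 0.06). Of the listed names without such a probe set, 12 close relatives and 15 others were only on shared probe sets, and 5 and 14 were on neither kind.

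For ATRA against DMSO, 2 of these 28 genes rose and none fell in limma, Ccdc92b by 0.36 ± 0.07 and Snai1, which encodes a repressor of epithelial genes, by 0.28 ± 0.06, where 6.26% of all genes rose. An unadjusted p under 0.05 was found for 3 of the 28 and for 25.5% of all genes. None of the 6 close relatives passed, and none had an unadjusted p under 0.05 (0 of 6): the largest differences were 0.18 ± 0.14 for Gm5039 and 0.17 ± 0.11 for Tdpoz1, with adjusted p = 0.447 and 0.399 in limma.

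The genes known to turn this state on or off moved in both directions. Of 7 activators, 4 fell from ES cells to day 4 EBs: Gata2 (-0.92 ± 0.05), Tbx3 (-0.55 ± 0.05), Nelfa, a subunit of the elongation factor NELF (-0.52 ± 0.06), and Dppa2, which with Dppa4 promotes Dux (-0.40 ± 0.06). Dppa2 and Tbx3 rose with ATRA, by 0.41 ± 0.06 and 0.35 ± 0.05. Dppa2 read 13.54 in ES cells, 13.13 with DMSO and 13.54 with ATRA. Of the 33 repressors, 8 rose and 5 fell from ES cells to day 4 EBs, none by more than 0.38. Among the listed genes of a Polycomb complex that holds germ line genes silent, Max (0.38 ± 0.05), Mga (0.32 ± 0.06) and Rnf2 (0.28 ± 0.05) rose and E2f6 (-0.30 ± 0.06) fell. Pcgf6 (-0.13 ± 0.06), L3mbtl2 (0.12 ± 0.07), Ring1 (-0.08 ± 0.05) and Cbx3 (0.16 ± 0.09) of that complex did not pass. Further, the deacetylase gene Hdac2 (0.32 ± 0.06) rose and Zfp809 (-0.22 ± 0.05), a retrovirus-silencing zinc finger gene, fell. Of the 40 regulators, 17 passed in this comparison, where 34.7% of all genes did.

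With ATRA against DMSO, 4 regulators rose and 7 fell in limma, 11 of 40, where 13.3% of all genes passed. Zfp42, known as Rex1 (-0.57 ± 0.06), the RNA-binding protein gene Lin28a (-0.36 ± 0.04), Rif1 (-0.38 ± 0.07), L3mbtl2 (-0.24 ± 0.07), Hdac2 (-0.23 ± 0.06) and Myc (-0.27 ± 0.07) fell, while Zfp809 (0.39 ± 0.05) and Rcor1 (0.15 ± 0.04) rose. Trim28, the corepressor that silences MERVL and other retroviruses, had means of 13.25 (ES), 13.23 (day 4 EB), 13.17 (DMSO) and 13.11 (ATRA) and passed neither test. Of 13 measured relatives of the members that are not 2-cell-stage genes, 1 rose from ES cells to day 4 EBs, Usp36 (0.17 ± 0.05), and 2 fell, Spop (-0.21 ± 0.05) and Zscan10 (-0.14 ± 0.05), where 17.8% of all genes rose and 16.9% fell. Most of the 13 are broadly expressed, but Zscan10 is a gene of pluripotent cells and Arg1, at 6.51 in ES cells and 6.53 in day 4 EBs, is restricted to certain tissues.

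**Figure D5:**
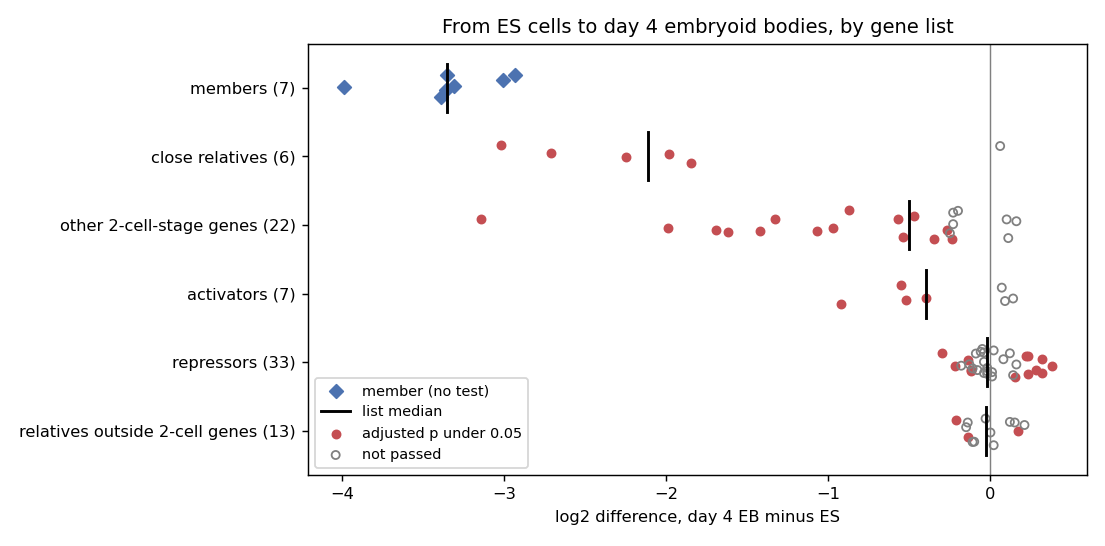
Log2 difference between day 4 EBs and ES cells (horizontal axis) of each gene, by list, with a bar at the list median and the number of genes in brackets. The 7 members lie from -3.99 to -2.93, the 22 other 2-cell-stage genes spread from -3.14 to 0.16, and the 33 repressors stay between -0.30 and 0.38.

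The genes with the profile nearest to that of the members were looked for over all 12 arrays, by the root mean square difference between centred log2 values. The nearest was Gm7982, a predicted gene (root mean square difference 0.10, Pearson r 0.999 over 12 arrays), with means of 10.49 (ES), 6.97 (day 4 EB), 6.84 (DMSO) and 7.11 (ATRA). It was followed by Ccl3, a chemokine gene (0.12), Usp17lb (0.14), Trim30a, an interferon-induced gene (0.16), Usp18, which encodes the protease that removes ISG15 from proteins (0.18), Efemp1, an extracellular matrix gene (0.19), Obox6 (0.19), Cavin2, a gene of caveolae (0.27), Ankrd1 (0.27) and Usp17lc (0.31). The 7 members themselves lay at 0.12 to 0.26 from their mean. The step between ES cells and EBs makes up most of the variation of these genes over the 12 arrays, and r was 0.992 to 0.999 for the 10. Pairs of members correlated at 0.977 to 0.996 over the 12 arrays.

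Fibroblast markers moved in the same direction in the same step. Of 12 measured, 10 fell from ES cells to day 4 EBs and none rose in limma, where 16.9% of all genes fell and 17.8% rose. By adjusted p the first were S100a4 (-2.30 ± 0.07), Loxl1 (-1.32 ± 0.04) and Thy1 (-1.82 ± 0.06). Dcn (-1.78 ± 0.06), Prrx1 (-1.84 ± 0.07) and Pdgfrb (-1.05 ± 0.04) followed. The mean of the 12 per array was 9.13 to 9.15 in ES cells and 7.94 to 8.06 in day 4 EBs. It was 7.91 to 7.96 under DMSO and 7.94 to 7.98 under ATRA. Lum, a matrix gene of fibroblasts, did not pass for day 4 EBs against ES cells, at 4.70 in ES cells and 4.78 in day 4 EBs. It was the only 1 of the 12 with group means below 5. The part of such cells in the members' values was not tested. Over the 3 ES arrays the mean of the 7 members was 10.91, 10.45 and 10.66. Single fibroblast markers did not all move together over these arrays. Dcn read 11.36, 11.10 and 11.19 there, and Loxl1 9.67, 9.69 and 9.75.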

How the data were processed

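RNA of 12 samples was hybridised to Affymetrix arrays after labelling of single-stranded cDNA made with the Ambion WT Expression kit, per the labels' protocols. The authors deposited 1 table of log2 values for 35556 probe sets, from 2.30 to 14.7; the log2 scale is read from the values, and no label states the background correction, normalization or summarization. Of the probe sets, 21789 list 1 symbol in the platform annotation, 1621 several and 12146 none. For each gene the probe set listing it alone was used (of several, that of highest mean), without a filter on low values. limma 3.58.1 (R 4.3.3) was fitted over all 12 arrays with a mean per group and eBayes (two-sided); p-values were adjusted by Benjamini-Hochberg across 19938 genes, and calls made under 0.05. The code was tested on simulated data. Errors of differences are the fit's SE and those of levels the SD (n = 3); the number of arrays limits the precision. P-values measure the spread between the labelled biological replicates.

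The members and gene lists were chosen with earlier results of these data known. From other lists up to 6 called genes are named per comparison and direction, ranked by adjusted p, or the 2 of largest change if there was no call; genes named through letter runs in their start regions, the 10 nearest profiles, Trim28, Tdpoz1, Gm5039, Lum, Arg1 and the uncalled Polycomb genes are extra, chosen after their values were seen, or come from their own rules. Promoter windows are from RefSeq, GRCm38.p6, and were aligned locally with Biopython 1.88. Tried as alternatives were median centring, quantile normalization, mean-value filters, other choices of probe sets, a trended robust prior, array weights, fits to 2 groups, a replicate block, each array left out and an adjusted p of 0.01.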

Additional observations from a re-analysis of the deposited data

How the results depend on the processing

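Of 363 alternative values 296 were rated the same and 0 reversed. Rated the same were differences on the same side of the threshold and counts within 1.5 times the main count. The members' median was rated by the SD between replicates. Counts cannot reverse, so the 0 concerns only differences and the members' median. A change of sign without a call was not rated as reversed. For ATRA against DMSO, Zfp352 ran from -0.09 to 0.01 and Eif4a3l1 from -0.27 to 0.12. The members' median difference between day 4 EBs and ES cells was -3.35, and -3.45 to -3.20 with an array left out. With an array left out, 0 to 3 of the 7 members passed for ATRA against DMSO in limma (3 had an unadjusted p under 0.05), 1868 to 3107 of all genes, 2 of the further 2-cell-stage genes in every case, and 6 to 12 of the regulators. For day 4 EBs against ES cells the same ranges were 19 to 21 further 2-cell-stage genes, 12 to 17 regulators and 2 to 3 relatives outside the 2-cell-stage genes. Among genes at or above the median mean, 1 member was called for ATRA against DMSO, and Tmem92 and Gm5662 are the only members tested there. Members called numbered 4 with array weights, 4 in the fit to 2 groups and 0 at an adjusted p of 0.01 in limma. All genes called were 4311 with array weights and 1605 at 0.01. Regulators called with ATRA were 7 after median centring and 6 at 0.01, and further 2-cell-stage genes 4 in the fit to 2 groups. For day 4 EBs against ES cells, further 2-cell-stage genes called were 2 among genes at or above the median mean, where fewer genes are tested. Regulators numbered 11 in the fit to 2 groups and 10 at 0.01. Relatives outside the 2-cell-stage genes numbered 5 among genes at or above the median mean, 5 with a mean of at least 6, 5 with the trended prior, 7 with array weights, 1 in the fit to 2 groups and 1 at 0.01. The other causes were not tested. With the replicate number as a block, 1 member was called and Tdpoz3 had a limma adjusted p = 0.0637; same-numbered arrays deviated together (correlation over 0.1) in 2 of 18 pairs, both of them between ES and EB arrays (0.30 for replicate 1 and 0.51 for replicate 2, against -0.07 for replicate 3). Between DMSO and ATRA arrays the correlations were 0.09, -0.04 and -0.01, and the numbers were not taken as pairing the samples. By Pearson r in place of the root mean square difference, 5 of the 10 nearest genes were the same. The estimate without replicate 2 of both the ES and EB groups was chosen after seeing the data.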
